A study of Mus musculus with 12 samples.

Results

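The splicing factor genes were examined in the master peak-list, the pooled catalog of accessible chromatin of 6 sorted mouse blood cell types. They were taken as the rows of the list whose gene name begins with Srsf, Sf3a, Sf3b, Prpf or U2af, with Snrp, or with Hnrnp, where Srsf, Sf3 and Prpf had to be followed by a number. This rule found 197 of 84243 peaks, under 63 of the 19040 gene names in the list. RefSeq holds 74 mouse genes whose symbol meets the rule, of which 69 are protein-coding and 5 are pseudogenes. All 63 names in the list were protein-coding, so 6 protein-coding splicing factor genes had no row, and they are described below. The symbols fix which genes are members and say nothing about their chromatin. The rule itself uses no measurement, but it was chosen with earlier results of these data known.

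Open chromatin was measured by ATAC-seq, in which a transposase inserts adapters into exposed DNA. The 12 samples were 2 replicates each of hematopoietic stem cells (HSCs), megakaryocyte progenitors (MkPs), erythroid progenitors (EPs), granulocyte/macrophages (GMs) and B cells from bone marrow, and of T cells, which the labels place in thymus. All came from C57BL/6 wild-type mice aged 8 to 12 weeks and were isolated by fluorescence-activated sorting on surface antigens, without any transgene or deletion. The peaks of all samples are merged in 1 list with no value per sample, so the cell type in which a peak was open, the depth behind it and the spread between replicates are unknown, and no comparison between cell types was possible. Of 24 markers of the 6 cell types, 20 had a peak within 500 bp of a transcription start site (TSS), and those without were Procr, Ebf1, Cd3g and Cd8a.

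Pre-mRNA splicing is carried out by the spliceosome, which is assembled from small nuclear ribonucleoproteins (snRNPs) and many further proteins. The Snrp genes encode the Sm proteins that ring the snRNA and some particle-specific proteins, the Sf3a and Sf3b genes encode the complexes that hold the U2 particle at the branch site, and the Prpf genes encode core and regulatory factors named after yeast splicing mutants. The U2af genes encode the factor that reads the 3′ splice site, SR proteins (Srsf) bind exons and promote splice site choice, and hnRNP proteins (Hnrnp) coat the transcript and often act against it. In blood, mutations of SF3B1, SRSF2 and U2AF1 are well known in myelodysplastic syndromes.

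The sequences that carry the main result are the short stretches between a splicing factor gene and a neighbour that starts nearby on the opposite strand. Those of Prpf31 (a U4/U6 snRNP protein), Prpf4 (another protein of that particle), Sf3a1 and Sf3a2 (subunits of SF3a), Snrpd3 (an Sm core protein) and Srsf5 (an SR protein) are shown. The first 5 of these genes had no promoter peak under their own name. Each sequence is read 5′ to 3′ on the strand of the splicing factor gene, from mm10, and lies between the TSS of the neighbour and that of the splicing factor gene. Capitals mark matches, on either strand, to consensus strings among 16 that were searched, here CCAAT (NF-Y), GGGCGG (SP/KLF) and CCGGAAG (ETS). Matches that overlap run together. These stretches were chosen after their values were seen.
Prpf31 and Tfpt, chr7:3629930-3629984 of mm10, plus strand: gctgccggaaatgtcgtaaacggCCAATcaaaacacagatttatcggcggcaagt
Prpf4 and Cdc26, chr4:62408626-62408782 of mm10, plus strand: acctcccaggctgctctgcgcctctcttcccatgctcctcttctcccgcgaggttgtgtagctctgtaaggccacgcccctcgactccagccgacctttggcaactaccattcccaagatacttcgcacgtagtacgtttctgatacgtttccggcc
Sf3a1 and Ccdc157, chr11:4160294-4160353 of mm10, plus strand: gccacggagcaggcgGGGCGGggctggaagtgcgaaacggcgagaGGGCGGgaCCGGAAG
Sf3a2 and Plekhj1, chr10:80798627-80798734 of mm10, plus strand: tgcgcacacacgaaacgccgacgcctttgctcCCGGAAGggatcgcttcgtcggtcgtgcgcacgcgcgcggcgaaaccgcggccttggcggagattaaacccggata
Snrpd3 and Gucd1, chr10:75517973-75518041 of mm10, plus strand: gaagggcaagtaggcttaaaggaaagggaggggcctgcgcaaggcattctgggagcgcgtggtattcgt
Srsf5 and Gm20337, chr12:80945400-80945498 of mm10, plus strand: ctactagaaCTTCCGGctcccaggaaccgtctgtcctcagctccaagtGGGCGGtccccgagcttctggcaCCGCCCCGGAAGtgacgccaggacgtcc

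For comparison, the 150 to 200 bases just upstream of the TSS are shown for genes of 5 families whose promoter peaks held many kinds of match. Srsf10 is an SR protein that represses splicing when dephosphorylated, Sf3b4 is an SF3b subunit, Prpf40b is a relative of a yeast U1 snRNP protein, Hnrnpll is known for its part in the alternative splicing of Ptprc in T cells, and U2af2 is the large U2AF subunit. Capitals mark the strings above together with CACGTG (USF/MYC E-box) and AGGGGGC (a core of the CTCF motif). The core of CTCF and GGGCGG can overlap, as they did upstream of Hnrnpll.
Srsf10, chr4:135855871-135856070 of mm10, plus strand: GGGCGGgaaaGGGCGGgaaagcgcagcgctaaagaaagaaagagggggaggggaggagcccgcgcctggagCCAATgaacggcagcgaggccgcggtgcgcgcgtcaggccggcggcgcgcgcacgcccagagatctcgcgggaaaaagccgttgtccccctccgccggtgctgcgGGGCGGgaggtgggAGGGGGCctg
Sf3b4, chr3:96172306-96172505 of mm10, plus strand: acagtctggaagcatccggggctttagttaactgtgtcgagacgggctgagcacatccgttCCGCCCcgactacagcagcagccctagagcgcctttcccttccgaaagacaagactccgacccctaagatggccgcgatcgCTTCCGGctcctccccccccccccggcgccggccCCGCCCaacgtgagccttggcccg
Prpf40b, chr15:99295038-99295237 of mm10, plus strand: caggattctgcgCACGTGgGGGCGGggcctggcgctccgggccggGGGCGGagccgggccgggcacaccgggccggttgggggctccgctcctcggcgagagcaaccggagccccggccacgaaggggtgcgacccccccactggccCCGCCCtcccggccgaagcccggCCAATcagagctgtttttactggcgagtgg
Hnrnpll, chr17:80062269-80062468 of mm10, minus strand: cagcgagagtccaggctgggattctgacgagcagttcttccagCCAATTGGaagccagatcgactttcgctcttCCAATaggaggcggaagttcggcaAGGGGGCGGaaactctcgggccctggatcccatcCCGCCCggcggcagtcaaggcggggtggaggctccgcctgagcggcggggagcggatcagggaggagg
U2af2, chr7:5061993-5062142 of mm10, plus strand: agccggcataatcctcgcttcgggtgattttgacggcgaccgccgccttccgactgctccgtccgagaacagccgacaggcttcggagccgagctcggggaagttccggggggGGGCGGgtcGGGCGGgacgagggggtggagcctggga

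Nearly every splicing factor gene had an accessible promoter in this list. By position, 67 of the 69 protein-coding members (97.1%) had a peak centred within 500 bp of a RefSeq TSS, whatever name the peak carried, against 60.4% of 21000 protein-coding genes. In these 67 genes the median distance from TSS to nearest centre was 70.0 bp, and 41 of them (61.2%) had a centre within 100 bp. The 12685 protein-coding genes with such a peak had a median of 64.0 bp and a share of 63.3%, so the member peaks were no closer to the TSS than others. The exceptions were Snrpn, an imprinted gene for a brain-enriched Sm protein, whose nearest peak was 73459 bp from a TSS, and Hnrnpa1l2-ps2, which RefSeq classes as protein-coding although its symbol marks a pseudogene, with the nearest peak 829628 bp away. The closest peaks were those of Snrpd1 (7 bp), Snrpf (8 bp), Srsf5 (14 bp), Prpf8 (15 bp) and Snrpb (16 bp). Prpf8 encodes the protein at the heart of the spliceosome, and Snrpd1, Snrpf and Snrpb encode Sm proteins.

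**Figure D1:**
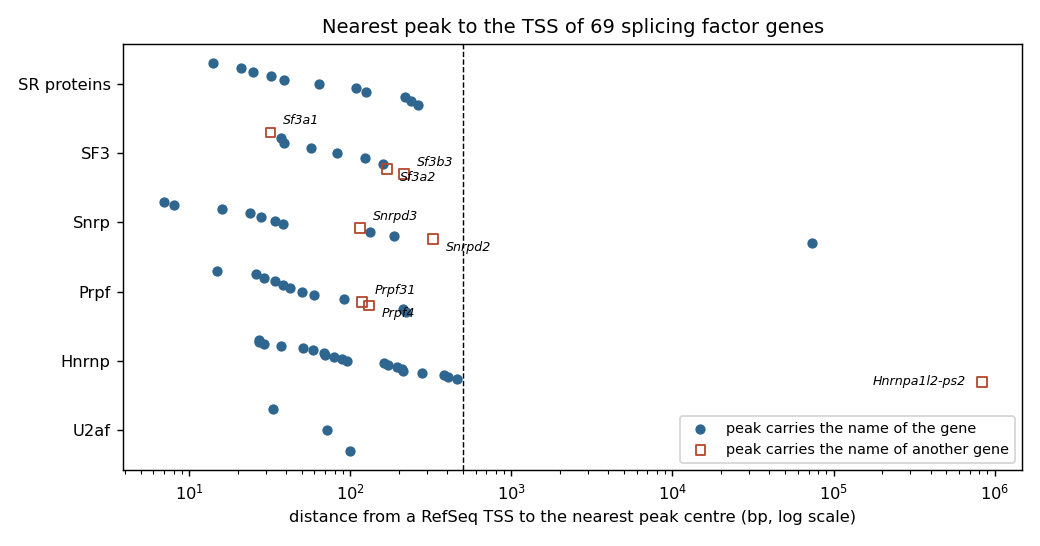
Distance from a RefSeq TSS to the nearest peak centre (bp, log scale) for each of the 69 protein-coding genes that meet the rule, by family. Filled circles are genes whose nearest peak carries their own name and open squares are those whose nearest peak carries the name of another gene. The dashed line marks 500 bp. All genes but Snrpn and Hnrnpa1l2-ps2 lie left of the line, and 7 of those to the left are squares.

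By the gene names of the list, fewer promoters were seen. A promoter peak, with its centre within 500 bp of the TSS by the distance given in the list, was found under the name of 59 of the 69 genes (85.5%, against 53.6% of all protein-coding genes). Of the 8 further genes found by position, 7 had their peak listed under a neighbour, since each peak carries 1 name only, and Srsf12 had a TSS in RefSeq other than the listed one. Prpf31, Prpf4, Sf3a1, Sf3a2 and Sf3b3 (an SF3b subunit) had no row in the list, yet each had a peak at its TSS that was listed under a divergent neighbour. The Prpf31 peak was centred 118 bp from its TSS and listed under Tfpt, whose TSS lies 56 bp away on the other strand. The Sf3a1 peak lay 32 bp from the TSS and was listed under Ccdc157, with the 2 TSSs 61 bp apart. For Prpf4 the peak lay at 131 bp under the name of Cdc26, and for Sf3a2 at 170 bp under Plekhj1. Sf3b3 had 2 peaks within 500 bp, the nearer at 216 bp under Cog4. These 5 genes therefore differ from Hnrnpa1l2-ps2, the other gene without a row, in having open chromatin at the TSS.

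A further 4 genes had a row but no promoter peak by name: Srsf12, Snrpd2, Snrpd3 and Snrpn. Snrpd2 and Snrpd3, both Sm core genes, again had the peak near their TSS listed under a divergent neighbour. The Snrpd3 peak was centred 115 bp from the TSS under the name of Gucd1, 70 bp away, and the Snrpd2 peak 326 bp from the TSS under Qpctl, 642 bp away. Srsf12, an SR protein, had a peak 546 bp downstream of its listed TSS, which is 265 bp from a RefSeq TSS of the same gene. It was among the peaks just outside the limit, with those of Srsf5 at 552 bp, Hnrnph3 at 566 bp and Srsf6 at 566 bp upstream and 575 bp downstream. Just inside were those of Hnrnpul1 at 457 bp and U2af2 at 487 bp, both upstream. Thus only Snrpn, with 1 peak in an intron of Snhg14, stayed without a promoter peak by either measure among the genes with a row.

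Divergent starts were frequent. A gene on the other strand, starting within 1000 bp and pointing away, was found for 22 of the 69 members (31.9%), against 11.7% of all protein-coding genes. With protein-coding neighbours only, the shares were 29.0% and 8.86%, and with neighbours within 300 bp the count was 14. The share was 23.7% of 76 other splicing genes, 17.5% of 40 proteasome subunit genes and 18.2% of 88 ribosomal protein genes. Besides the 7 genes above, the pairs within 200 bp were Snrpa with BC024978 (21 bp), Srsf11 with Lrrc40 (76 bp), Hnrnpk with Rmi1 (79 bp), Srsf5 with the non-coding Gm20337 (100 bp), Hnrnpul2 with Ttc9c (107 bp), Prpf38a with Orc1 (118 bp), U2af1l4 with Psenen (136 bp) and Hnrnph2 with Gla (174 bp). In these 8 pairs the peak carried the name of the splicing factor gene. Wider pairs, from 322 to 772 bp, were those of Hnrnpa1, Hnrnpa2b1, Hnrnpa3, Hnrnpdl, Hnrnph3 and Srsf2. Hnrnpa1 faces Cbx5 and Hnrnpa2b1 faces Cbx3, so 2 hnRNP A/B genes start within 1000 bp of genes for heterochromatin protein 1. Divergent pairs were found in 8 Hnrnp, 4 Prpf, 3 Srsf, 3 Sf3, 3 Snrp and 1 U2af gene.

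Of the 197 peaks, 67 were promoter peaks (34.0%), with a 95% Wilson interval of 27.8 to 40.9% that reflects counting alone, against 15.6% of all peaks. The other 130 were distal, non-promoter peaks. The promoter share was 30.2% in SR proteins (13 of 43 peaks), 33.3% in Sf3 genes (6 of 18), 40.9% in Snrp genes (9 of 22), 37.9% in Prpf genes (11 of 29), 30.4% in Hnrnp genes (24 of 79) and 66.7% in U2af genes (4 of 6). The intervals of the 6 families overlapped. Among the gene sets set beside the members, the share was 18.8% for the other splicing genes, 29.6% for proteasome subunits, 29.6% for ribosomal proteins and 5.36% for 10 ETS family blood factors.

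**Figure D2:**
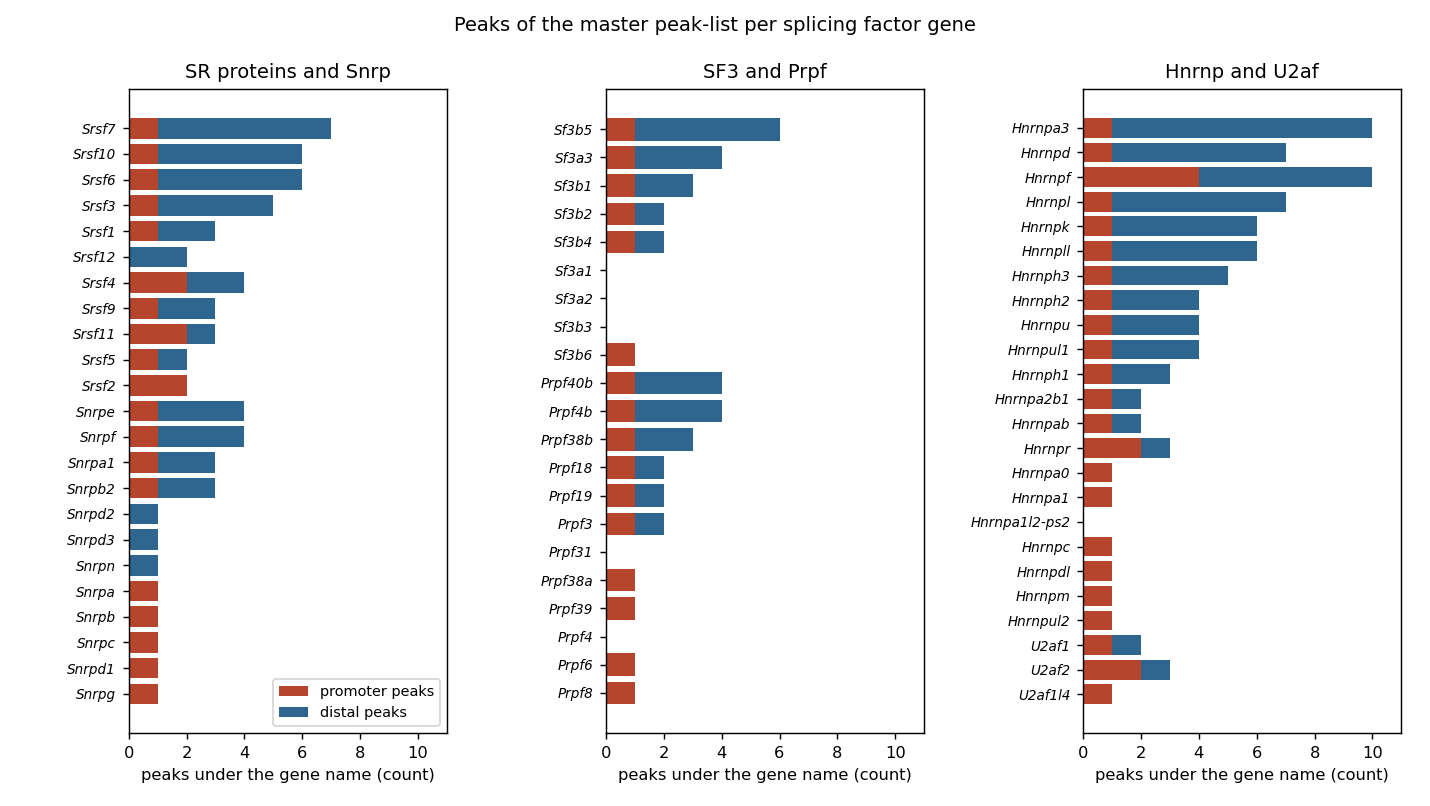
Number of promoter (red) and distal (blue) peaks under the name of 68 of the 69 protein-coding splicing factor genes, ordered within family by distal peaks. Most genes have 1 promoter peak, Hnrnpf has 4, and the longest bars are those of Hnrnpa3 and Hnrnpf with 10 peaks each.

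Most members had a single promoter peak. Exactly 1 was found in 53 genes and 2 or more in 6 (8.70% of 69), against 3.6% of all protein-coding genes. Those shares include genes without a promoter peak. Among genes with any promoter peak by name, 2 or more were found in 6 of 59 members and 755 of 11266 protein-coding genes. Hnrnpf, which encodes a G-tract binding protein, had 4, at 27 bp downstream and at 27, 117 and 304 bp upstream of its nearest TSS, over the 4 TSSs that RefSeq gives it. The peak at the most upstream TSS held 49.7% G and C and the other 3 held 61.9 to 72.7%. Hnrnpr had peaks 115 and 70 bp upstream of 2 separate TSSs, and Srsf11 likewise had them 45 and 6 bp downstream. In Srsf2, Srsf4 and U2af2 the 2 peaks flanked the listed start. They lay 240 bp upstream and 435 bp downstream in Srsf2, which binds exonic enhancers, 127 bp upstream and 389 bp downstream in Srsf4, and 487 bp upstream and 99 bp downstream in U2af2. By RefSeq the downstream Srsf4 peak was centred 32 bp upstream of another TSS of Srsf4. Counting every peak within 1500 bp of the TSS, 18 genes (26.1%) had at least 2, against 13.8% of all protein-coding genes. These shares too include genes with no peak there, and the share of the other splicing genes was 26.3%. Srsf6 had 3 peaks within 1500 bp, 1 at the TSS (64 bp upstream) and 1 on each side.

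Distal peaks were not more frequent than around other genes. At least 1 was listed for 45 of the 69 genes (65.2%), against 64.3% of all protein-coding genes, and the median was 1 in both. By other summaries members had fewer. The mean was 1.88 distal peaks per gene in members and 2.79 in all protein-coding genes. Among genes named in the list the medians were 1 and 2, and 45 of 63 members and 13493 of 15861 protein-coding genes had a distal peak. A total of 24 members had none under their name, among them Prpf6, Prpf8 and Prpf39, and the Sm genes Snrpb, Snrpd1 and Snrpg. The same held for Srsf2, Hnrnpa0, Hnrnpa1, Hnrnpc, Hnrnpm, Hnrnpdl and Hnrnpul2. By nearest RefSeq TSS, Hnrnpa1 and Hnrnpc had 1 distal peak each. Of the genes in the list, 15 had 1 distal peak, 9 had 2, 8 had 3, 2 had 4, 5 had 5, 4 had 6, 1 had 7 and 1 had 9. Both kinds of peak were present in 41 genes, promoter peaks alone in 18 and distal peaks alone in 4. The territory of a gene, the stretch of genome nearer to its TSSs than to any other RefSeq TSS, had a median of 29.7 kb in members and 42.4 kb in all protein-coding genes. Per 100 kb of territory the median was 3.16 distal peaks in members and 2.64 in all genes, and the pooled values were 2.71 and 2.85, so the order of the 2 groups depended on the summary. The ETS family blood factors, which drive lineage choice, had a median of 10 distal peaks per gene and 11.8 per 100 kb.

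The 6 genes with the most distal peaks held 40 of the 130 (30.8%). They include Hnrnpa3 with 9, and Hnrnpd, Hnrnpf, Hnrnpl and Srsf7 with 6 each. All 9 of Hnrnpa3, a relative of Hnrnpa2b1, lay upstream in intergenic sequence, between 22452 and 95594 bp from the TSS. By RefSeq the nearest TSS to all of them was that of the divergent Gm39859. The 6 of Srsf7 lay in introns of Galm, 23486 to 37290 bp downstream, with Gm51284 as the nearest TSS in RefSeq. In Hnrnpd, which binds AU-rich RNA, 2 distal peaks lay in the first intron (1015 and 4850 bp) and 4 beyond the gene at 72426 to 109823 bp, where Vamp9 was nearest in RefSeq. Those of Hnrnpf and Hnrnpl were compact, with no centre farther than 11413 bp and 10652 bp. Hnrnpl, a regulator of Ptprc splicing like Hnrnpll, had 5 of its 6 upstream, at 1682, 2452, 3832, 7839 and 10652 bp, and 1 in an intron at 5507 bp.

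The central 200 bases of 1 distal peak of Hnrnpa3, the gene with the most, are shown on the strand of the gene, to set their sequence beside the promoters above. The peak was centred 74107 bp upstream of the TSS. Capitals mark the strings above and TGANTCA (AP-1), with N for any base.
Hnrnpa3, chr2:75585052-75585251 of mm10, plus strand: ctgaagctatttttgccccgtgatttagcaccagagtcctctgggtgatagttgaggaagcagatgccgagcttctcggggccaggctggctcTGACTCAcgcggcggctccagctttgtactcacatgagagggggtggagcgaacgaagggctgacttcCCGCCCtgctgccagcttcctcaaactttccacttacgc

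Distal peaks of splicing factor genes lay closer to the TSS than distal peaks in general. Their median distance was 14006.5 bp against 22261 bp. Between 500 and 2000 bp lay 19 of the 130 (14.6% against 7.76% of all distal peaks), between 2 and 10 kb lay 34 (26.2% against 21.2%), between 10 and 100 kb lay 70 (53.8% against 58.1%), and over 100 kb lay 7 (5.38% against 13.0%). Among the farthest were those of Srsf6 at 117158 bp and Hnrnpd at 109823 bp. By family the median ran from 4014 bp in U2af genes, with 2 peaks, and 6035.5 bp in Sf3 genes to 21944 bp in Snrp and 23168.5 bp in Prpf genes.

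**Figure D3:**
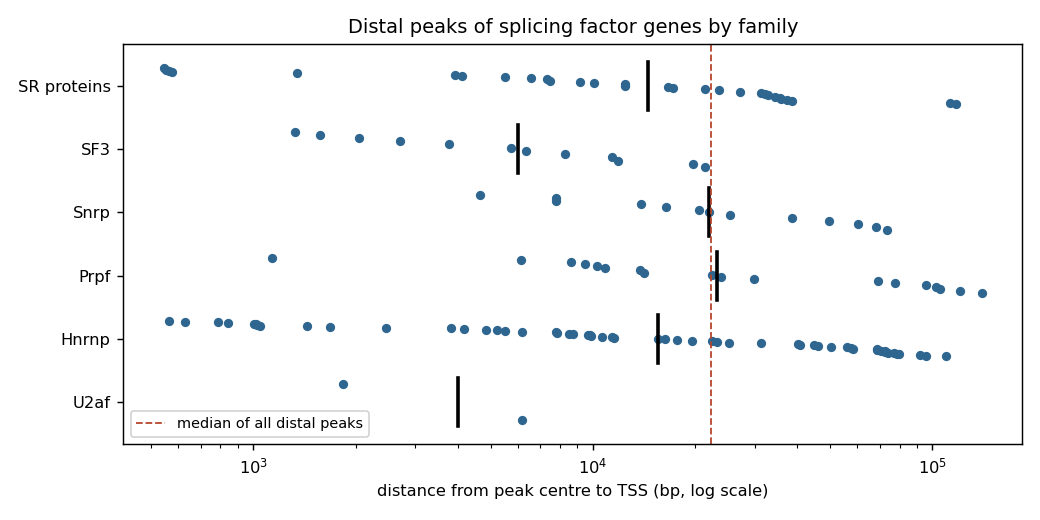
Distance from the centre of each of the 130 distal peaks to the TSS given in the list (bp, log scale), by family. Each point is a peak, black bars are family medians, and the dashed line is the median of all 71072 distal peaks at 22261 bp. The medians of all families but Prpf lie left of the line.

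By annotation, 74 of the 130 distal peaks (56.9%) were intergenic, against 44.6% of all distal peaks, and 43 (33.1%) were in introns, against 48.0%. Of the intronic peaks only 18 lay in the gene whose name they carry (41.9%, against 71.9% of all intronic distal peaks), 9 of them in the first intron. The other 25 lay in another gene. Besides the 6 in Galm, they included 3 under Hnrnph3 in Rufy2, 2 under Prpf40b in Fmnl3, 2 under Snrpa1 in Pcsk6, and 1 each under Srsf4, Srsf11, Snrpd2, Snrpf and Snrpn. Without Srsf7, 19 of 37 intronic peaks (51.4%) lay in another gene, against 28.1% of all intronic distal peaks. The nearest RefSeq TSS belonged to the gene named in the list for 65 of 67 promoter peaks and 110 of 130 distal peaks. The names of distal peaks are those of the nearest TSS and do not show which gene a peak acts on.

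The promoter peaks were rich in CpG dinucleotides. Their G and C content had a median of 63.7%, close to 63.3% in all promoter peaks, whereas the ratio of observed to expected CpG, which is near 1 where CpG has not been depleted, had a median of 0.917 (quartiles 0.855 and 0.997) against 0.778 (0.606 and 0.897). Ribosomal protein and proteasome genes had medians of 0.879 and 0.788, and the other splicing genes 0.945. The lowest member value, 0.360, was that of the most upstream Hnrnpf peak, and the next were 0.645 in Prpf18 and 0.709 in another Hnrnpf peak. Distal peaks had a median ratio of 0.284 against 0.220 and G and C of 48.1% against 47.7%. In 40 of the 41 genes with both kinds, the promoter ratio was above the mean of the distal peaks.

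**Figure D4:**
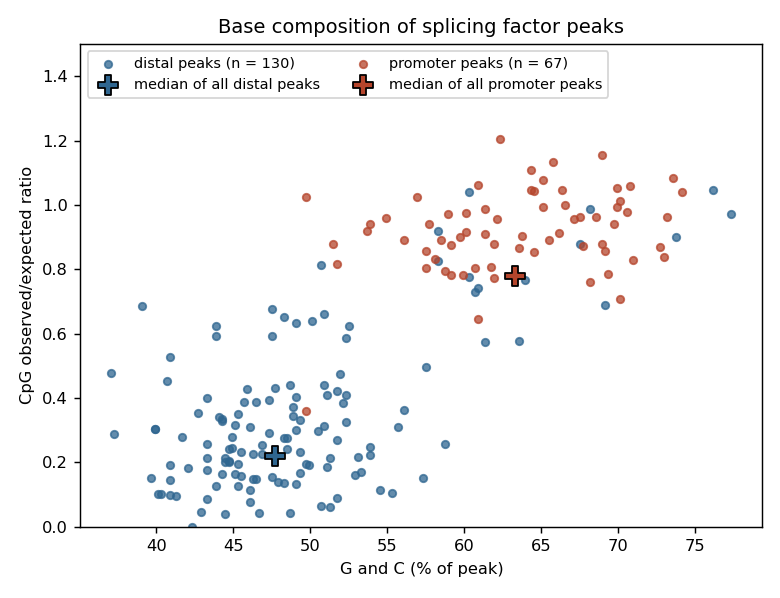
G and C content (% of the peak) and ratio of observed to expected CpG for the 67 promoter (red) and 130 distal (blue) peaks of splicing factor genes. Plus signs are the medians of all promoter and all distal peaks. Promoter points centre above their plus sign, at a median ratio of 0.917 against 0.778, and a small group of blue points lies among the red ones.

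Some distal peaks resembled promoters in composition. HOMER annotated 12 distal peaks (9.23%, against 1.98% of all) as CpG island, and 9 of the 12 lay within 2000 bp of the TSS. They include peaks in the first introns of Hnrnpa2b1 (627 bp), Hnrnph3 (566 bp), Hnrnpu (1025 bp), Hnrnpd (1015 bp) and Srsf12 (546 bp). The 19 distal peaks within 2000 bp had a median CpG ratio of 0.741 against 0.360 for all distal peaks at that distance, and the 111 farther ones 0.248 against 0.214. The 3 CpG island peaks farther out were under Hnrnpd (72426 bp), Hnrnpu (31213 bp upstream) and Snrpd2 (7767 bp, in an intron of Gipr). By RefSeq this Hnrnpd peak was centred 247 bp from the TSS of Vamp9, so by position it was a promoter peak. The same holds for the Srsf12 peak, 265 bp from a RefSeq TSS. It also holds for the CpG island peak of Hnrnph1, listed at 787 bp but 215 bp from a RefSeq TSS.

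The letters of several promoter motifs were more frequent in splicing factor promoters than in all promoter peaks. All 16 strings were searched on both strands of each whole peak. The intervals treat peaks of 1 gene as independent and make no allowance for the number of strings, so they are not tests. The ETS string CCGGAAG occurred in 29 of 67 promoter peaks (43.3%, 95% interval 32.1 to 55.2%), against 21.3% of all 13171. The NF-Y string CCAAT occurred in 42 (62.7%, 50.7 to 73.3%), against 44.3%, and the YY1 string ATGGCGG in 17 (25.4%, 16.5 to 36.9%), against 14.2%. The SP/KLF string GGGCGG occurred in 54 (80.6%, 69.6 to 88.3%), against 75.7%, which lies within the interval. Among promoter peaks with a CpG ratio of at least 0.75, a stratum set after the data were seen, the shares were 40.6% of 64 member peaks against 26.1% for ETS, 62.5% against 41.2% for NF-Y, 26.6% against 18.7% for YY1 and 81.2% against 88.2% for SP/KLF. For YY1 the share of all peaks in this stratum lies within the interval of the member peaks above.

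The number of genes whose promoter peaks held a string varied by family. Here and in the shares of peaks above, only peaks under the name of the splicing factor gene were read. Genes whose promoter peak was listed under a neighbour are therefore left out. CCGGAAG was found in promoter peaks of 6 of 9 Snrp genes (Snrpb, Snrpb2, Snrpc, Snrpd1, Snrpe and Snrpg), 4 of 6 Sf3 genes (Sf3a3, Sf3b2, Sf3b4 and Sf3b6) and 6 of 11 Prpf genes, but in 4 of 20 Hnrnp genes (Hnrnpd, Hnrnpf, Hnrnpll and Hnrnpul1). CCAAT was found in 17 of 20 Hnrnp genes, the exceptions being Hnrnpd, Hnrnph3 and Hnrnpm, and in 8 of 11 Prpf and 5 of 9 Snrp genes. ATGGCGG was found in 5 of 10 SR protein genes and 1 of 9 Snrp genes. These are counts of few genes, and the differences between families were not tested. They count a gene once over all its promoter peaks, unlike the shares of peaks above. Of all promoter peaks, 21.3% held CCGGAAG, 44.3% CCAAT and 14.2% ATGGCGG. The Hnrnp share for CCGGAAG (20.0% of genes) and the Snrp share for ATGGCGG (11.1%) were near those levels. Sf3a1, Prpf31, Prpf4 and Snrpd3 are not in these counts. In the stretches printed above, CCGGAAG lay directly before the TSS of Sf3a1 and CCAAT within the 55 bases between Tfpt and Prpf31. Those of Prpf4 and Snrpd3 held none of the 16 strings.

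The other strings were not set apart from all promoter peaks by the member intervals, which are wide. CACGTG (USF/MYC E-box) was in 14 peaks (20.9% against 13.8%), AGGGGGC (CTCF core) in 20 (29.9% against 22.5%), CAGCTG (E2A E-box) in 12 (17.9% against 26.1%), TATAAA, the box of core promoters, in 7 (10.4% against 7.81%) and GCATGCGC (NRF1) in 4 (5.97% against 5.77%). TCTCGCGAG (ZBTB33) was in 3, those of Hnrnpk, Srsf4 and Srsf10 (4.48%, 1.53 to 12.4%, against 1.56%). TGACGTCA (CREB/ATF) was in 2 (2.99% against 3.63%) and ACTACAA (ZNF143) in 3 (4.48% against 4.84%). In all of these the share of all promoter peaks lay within the interval of the member peaks. For the strings of blood lineage factors the intervals likewise held the share of all promoter peaks. The GATA string AGATAA was in 5 (7.46% against 8.66%) and the RUNX string TGTGGTT in 4 (5.97% against 5.88%). The PU.1 string GAGGAAGT was in 3 (4.48% against 4.79%) and the AP-1 string TGANTCA in 3 (4.48% against 6.80%).

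In distal peaks the shares of all distal peaks lay within the member intervals for each lineage string. AGATAA occurred in 26 of 130 (20.0%, 95% interval 14.0 to 27.7%), against 26.9% of all distal peaks, TGTGGTT in 22 (16.9%, against 12805 of 71072), GAGGAAGT in 13 (10.0% against 10.2%), TGANTCA in 20 (15.4% against 16.9%), CAGCTG in 35 (26.9% against 30.4%) and AGGGGGC in 15 (11.5% against 10.5%). The exceptions among the 16 strings were ATGGCGG, in 7 (5.38%, 2.63 to 10.7%) against 1.92%, and GGGCGG, in 35 (26.9%, 20.0 to 35.1%) against 14.6%. In the central 200 bp alone, GGGCGG stayed outside, in 26 (20.0%, 14.0 to 27.7%) against 8.87%, whereas ATGGCGG did not, in 2 (1.54%, 0.423 to 5.44%) against 0.816%. CCAAT, in 35 (26.9%, 20.0 to 35.1%) against 19.7%, and CACGTG, in 10 (7.69%, 4.23 to 13.6%) against 4.22%, then lay just outside. These intervals treat all 130 peaks as independent, although 6 genes held 40 of them. In whole distal peaks GGGCGG was found in 13 of the 19 distal peaks within 2000 bp (68.4%, against 34.7% of all distal peaks there) and in 22 of the 111 farther ones (19.8% against 12.9%). The CpG content of these peaks, given above, was also higher, and its part in the difference was not tested.

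**Figure D5:**
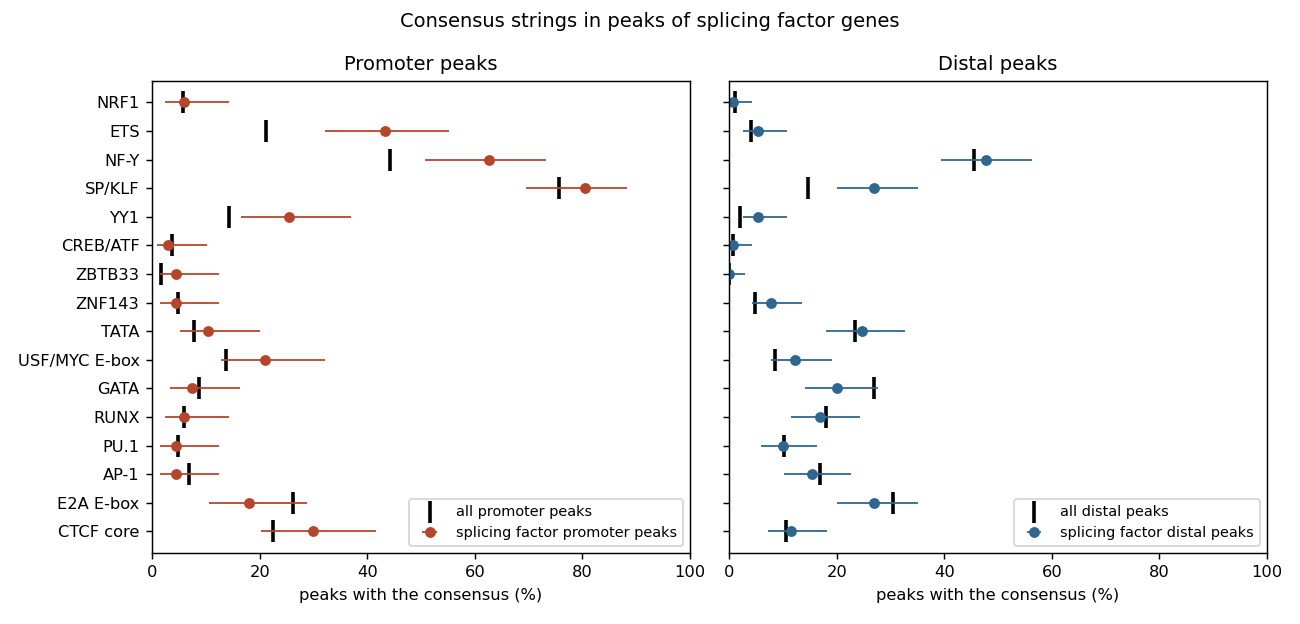
Share of promoter (left) and distal (right) peaks of splicing factor genes that hold each of 16 consensus strings on either strand (points, with 95% Wilson intervals that cover counting error only), beside the share of all promoter or distal peaks (black ticks). The ticks for ETS, NF-Y and YY1 in promoter peaks and for YY1 and SP/KLF in distal peaks lie below the intervals.

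The remaining splicing genes, a list of 76 that the symbol rule leaves out, such as the Lsm proteins, kinases of SR proteins and tissue-specific regulators, gave a similar picture at promoters and a wider one at distal sites. A peak lay within 500 bp of a TSS in 70 of 76 (92.1%). The 6 without were Esrp1, Esrp2, Nova1, Nova2, Rbfox1 and Rbfox3, regulators known from epithelia or neurons. Their median was 1.5 distal peaks per gene, with 34 under Mbnl1 and 33 under Celf2, more than under any member of the 6 families. Promoter peaks were also found by position in 38 of 40 proteasome subunit genes, 92.0% of ribosomal protein genes and 90.0% of the ETS family factors, so a high share was not particular to splicing factors.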

How the data were processed

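The authors aligned ATAC-seq reads of 12 samples to mm10 with the ENCODE pipeline, leaving out multimapping reads, called peaks per cell type by the Irreproducible Discovery Rate, pooled the 6 lists with chromVAR into non-overlapping peaks and annotated them with HOMER (4.10.2 per the submitters' notes). The deposited positions and distances to the TSS, in bp, were used as given. The deposited score was 0 in every peak. No read counts were used, so depth and replicate error are unknown. The members and gene lists were chosen with earlier results of these data known.

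Peaks centred within 500 bp of the listed TSS were promoter peaks and the rest distal. Base composition and strings of members were read only in peaks under their own names. TSSs came from curated RefSeq transcripts of GRCm38.p6 (mm10), and sequence from the same assembly. Each of the 16 strings was counted once per peak, in either orientation over its full width, and 480 of 480 planted sites were found in simulated sequence. Shares have 95% Wilson intervals, which treat peaks of 1 gene as independent and make no allowance for the number of strings. No test was run, since 1 pooled list has no replicates. Every member could be named, with full values for those with no or several promoter peaks, the most or farthest distal peaks, or a divergent start, and 1 gene and 1 promoter stretch are not reported here. Python 3.11.15, numpy 2.4.6, pandas 2.3.3 and matplotlib 3.10.9 were used.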

Additional observations from a re-analysis of the deposited data

How the results depend on the processing

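No paired analysis was possible because the list holds no value per sample, and a stricter peak score could not be applied because the score was 0 in every peak. Of 71 alternative values, 46 stayed within 1.5 times the reported count or median or within the interval of the reported share, and 25 did not. With a promoter limit of 100 bp, 37 of the 69 members had a promoter peak by name, against 34.8% of all protein-coding genes. At that limit 19.8% of member peaks were promoter peaks, against 9.59% of all peaks. With distal peaks counted from 10000 bp, 28 of the 69 members had 1 or more, a lower share than the 47.5% of all protein-coding genes. At the main limit the member share was the higher, at 65.2% against 64.3%. With neighbours within 300 bp, 14 of the 69 members had a divergent start, against 8.97% of all protein-coding genes. With promoters by position instead of name, 67 members had a peak against 59 by name.

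Searching only the central 200 bp reads fewer bases, and motif shares fell, except that of AP-1 in promoter peaks and of ZBTB33 in distal peaks, which stayed at 4.48% and 0. In promoter peaks they were 49.3% for NF-Y (28.6% of all promoter peaks), 65.7% for SP/KLF (58.6%), 13.4% for YY1 (7.17%), 4.48% for TATA (2.74%), 1.49% for GATA (2.90%) and for RUNX (2.44%), 7.46% for the E2A E-box (12.0%) and 17.9% for the CTCF core (12.2%). The ETS share, 35.8% against 13.6%, stayed within its interval. In distal peaks they were 2.31% for ETS (2.28%), 26.9% for NF-Y (19.7% of all distal peaks), 20.0% for SP/KLF (8.87%), 1.54% for YY1 (0.816%, now within the interval), 3.85% for ZNF143 (1.83%), 9.23% for TATA (7.16%) and for RUNX (11.2%), 7.69% for the USF/MYC E-box (4.22%), 8.46% for GATA (12.7%), 17.7% for the E2A E-box (17.5%), 6.15% for the CTCF core (6.45%), and 0 for NRF1 (0.504%) and CREB/ATF (0.440%). Counting distal peaks per territory by the names in the list, chosen after the data were seen, gave medians of 3.80 per 100 kb in members and 2.55 in all genes.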
